A study of Homo sapiens with 9 samples.

Results

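Secondary (specific) and tertiary (gelatinase) granules are storage organelles of the neutrophil, and the genes examined here encode their contents: LTF, LCN2, CAMP, MMP8, MMP9, CEACAM8, CHI3L1, TCN1, OLFM4 and HP. The members were taken by gene name, and all 10 were found as 1 row each in both deposited tables, which hold 35856 loci for the treatments and 36119 for the knockout. All RNA came from NB4, a cell line from acute promyelocytic leukaemia in which the PML-RARA fusion protein holds maturation back. A first set has 5 libraries, 1 per 24 h treatment: the vehicle DMSO, the LSD1 inhibitor MC_2580 (its dose is not in the labels), retinoic acid (RA) at 0.01 uM, RA at 1 uM, and the combination of MC_2580 and RA 0.01 uM. LSD1, the product of KDM1A, removes methyl groups from histones. A second set has 2 LSD1 KO and 2 wild-type (WT) libraries of cells labelled as untreated. The file header gives both KO libraries 1 line name, and the number of clones is not in the labels. Nothing in the labels says whether replicate libraries are separate cultures, and p-values therefore describe the spread among these libraries alone, which may be technical.

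Neutrophil granules are filled in sequence as the cell matures. Primary granule proteins such as myeloperoxidase are made by promyelocytes, secondary granule proteins by myelocytes and metamyelocytes, and gelatinase by the band cells that follow. Factors of the C/EBP family, C/EBP epsilon above all, are known to drive the secondary granule genes, and RA releases the PML-RARA block on maturation. The NB4 line is known for making little of several secondary granule proteins even when RA matures it.

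Values are FPKM, which are scaled for transcript length, so levels can be set beside each other between genes. The knockout and treatment tables were scaled apart, and no difference was computed across them. The depth of each library is unknown, and only relative depth could be read from the steps between low values: 0.731 to 0.897 of DMSO in the other treatment libraries, and 1.04 to 1.66 times WT 1 in the other knockout set libraries, as reads behind 1 FPKM. KDM1A (listed as AOF2) read 13.96 FPKM in KO 1 and 16.8 in KO 2, below its 49.8 in WT 1 and 66.6 in WT 2 (log2 difference -1.84, SE 0.23, limma adjusted p = 0.158), so KO libraries still held RNA from the gene. Of 11 promyelocyte markers, the myeloperoxidase gene MPO stood at 2454 to 6518 FPKM over the 9 libraries, while ELANE (listed as ELA2), the neutrophil elastase gene, lay between 0 and 0.242 and KIT between 0 and 0.372.

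The 10 granule genes differed widely in level. MMP9 and CHI3L1 alone reached at least 1 FPKM in every one of the 9 libraries, 5 members reached it in at least 1 library, and the other 5 stayed under 1 FPKM throughout. LTF, LCN2 and OLFM4 stayed under 0.1 FPKM in every library. In the treatment set HP, CAMP, MMP8, MMP9 and CEACAM8 were highest in the combination, MMP8 and CEACAM8 at under 1 FPKM. The share of all loci highest there was not computed, so this is no result about the members as a set.

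**Figure D1:**
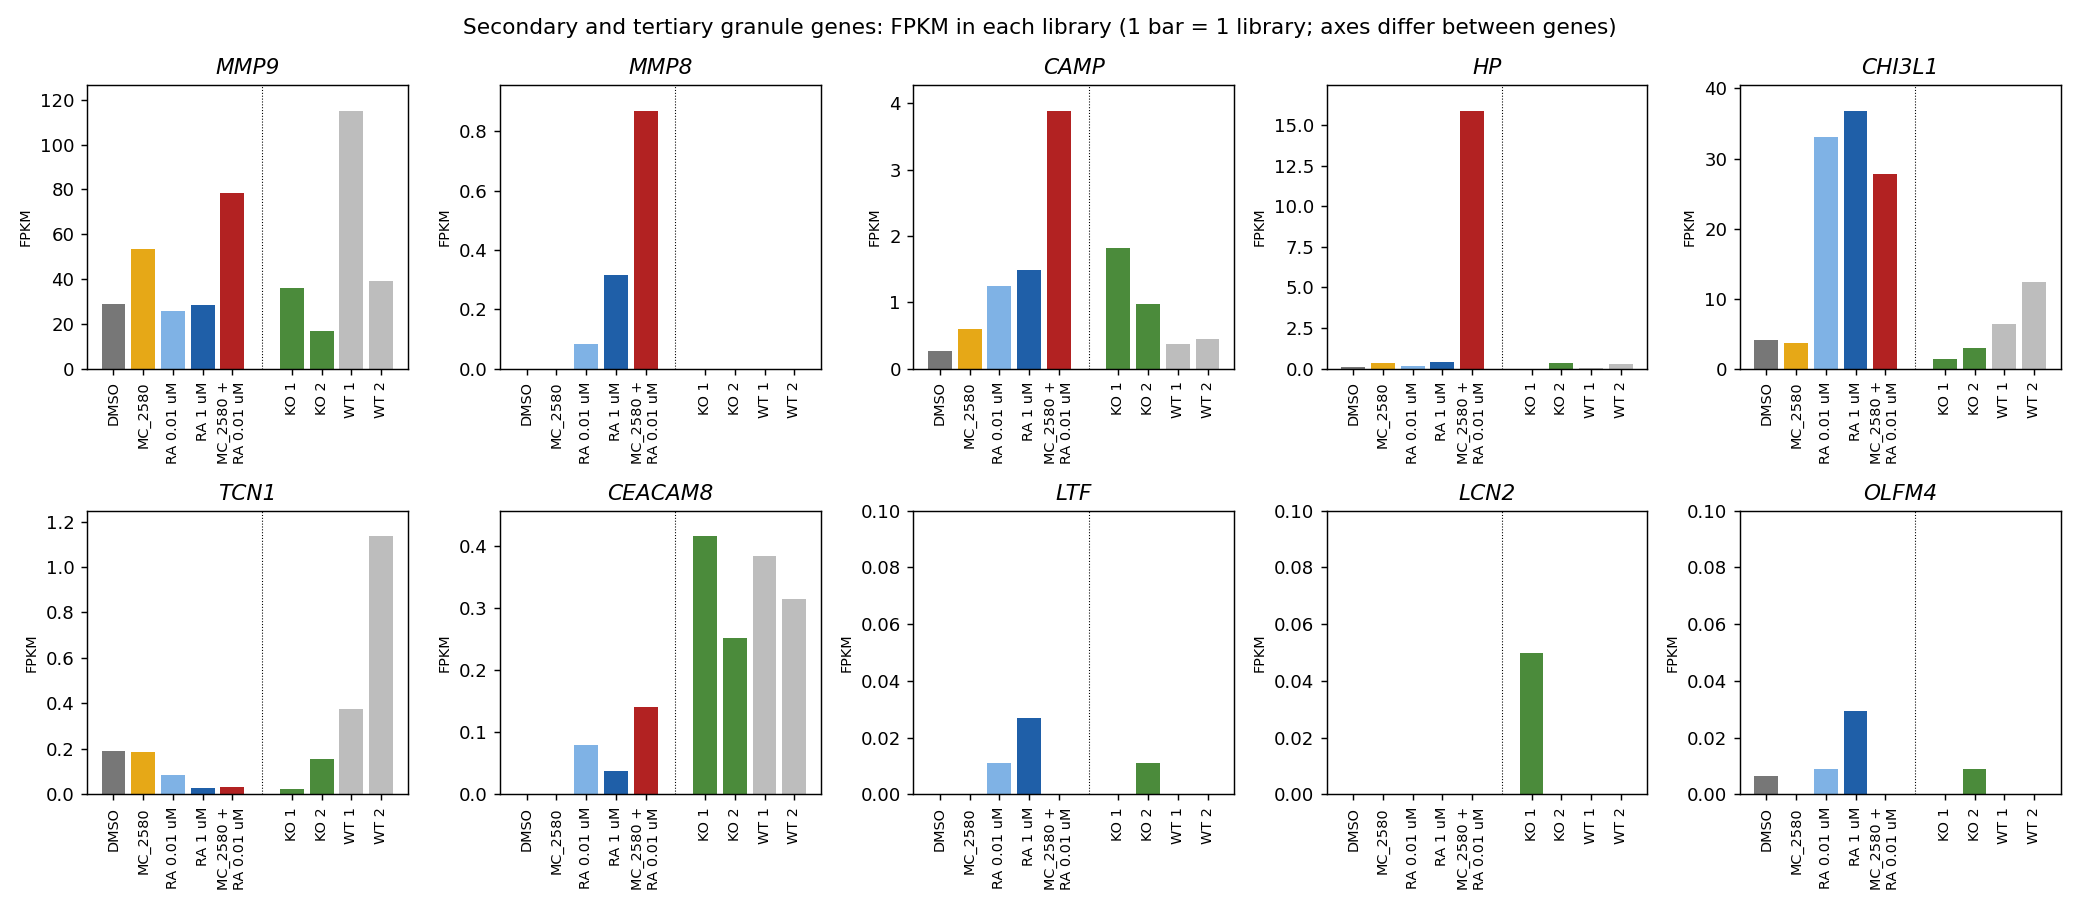
FPKM of the 10 granule genes in each of the 9 libraries, 1 bar per library, with the treatment set left of the dotted line and the knockout set right of it, and a separate axis for each gene. HP stands at 15.9 in the combination and at or under 0.434 in the 8 other libraries, while CHI3L1 is at 27.7 to 36.8 in the 3 libraries with RA.

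HP had the most uneven pattern. It encodes haptoglobin, the plasma protein that binds free haemoglobin, which neutrophils make while maturing and store in specific granules. HP was at 0.112 FPKM in DMSO, 0.365 with MC_2580, 0.154 with RA 0.01 uM and 0.434 with RA 1 uM. In the combination it was at 15.9 FPKM, which is 36.5 times the next highest treatment library and 141 times DMSO. With each agent alone HP thus stayed under 1 FPKM. In the knockout set it was at 0 and 0.368 in KO and 0.052 and 0.307 in WT. The log2 difference of the combination, on log2(FPKM + 1), was 3.92 against DMSO, 3.87 against RA 0.01 uM and 3.56 against RA 1 uM. Among protein-coding genes with 1 locus, HP ranked 73 of 9894 from the highest against DMSO, 10 of 9787 against RA 0.01 uM and 5 of 9763 against RA 1 uM. It reached the 1 FPKM needed to be ranked only through the combination in all these comparisons, so the filter itself favours a difference. With a pseudocount of 0.1 in place of 1 the differences of HP were 6.23, 5.97 and 4.90.

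How far the combination departed from the added effects of its parts (its log2 difference from DMSO minus those of MC_2580 and RA 0.01 uM) was 3.57 for HP, rank 2 of 9832 protein-coding genes, of which 2.80% deviated by 1 or more and whose median was 0.04. HP entered this ranking too only through its value in the combination, so the filter itself favours a high deviation. No replicate checks this value. The HP row spans chromosome 16, 70646009 to 70668646 (build hg18), 22638 bases, against 6551 for HP alone and 22742 for HP with its neighbour HPR in RefSeq (GRCh38.p14). HPR, which encodes the closely related haptoglobin-related protein, has no row of its own in either table, so reads of the pair cannot be told apart here.

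By the distance over the 4 log2 differences from DMSO, the genes nearest to HP among 8134 protein-coding genes of at least 5 FPKM in 1 treatment library were S100A12 (distance 0.55), GIMAP4 (0.66) and AIM2 (0.68). S100A12, a calcium-binding protein of neutrophils and monocytes, was listed at 0 in DMSO and reached 0.317 FPKM with MC_2580, 0.223 and 0.134 with RA 0.01 and 1 uM, and 10.1 in the combination. GIMAP4, a GTPase of lymphocytes, was at 9.33 FPKM in the combination and at most at 0.310 in the other treatment libraries, and the DNA sensor gene AIM2 was at 8.74 and at most at 0.355. The 3 genes shared with HP a high value in 1 treatment library, the combination, by the way they were chosen.

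Markers of other cells that make HP or mature beside neutrophils were also read in these libraries. In the list of 9 monocyte and macrophage markers, of which 8 matched a row, the summed level was 31.7 FPKM in the combination, 9.44 with MC_2580, 15.8 with RA 0.01 uM, 14.9 with RA 1 uM without CD14, and 1.34 in DMSO without CSF1R, these 2 values being missing. The sum was 2.74 to 4.75 in the knockout set. CSF1R was at 7.49 FPKM with MC_2580, 12.5 with RA 0.01 uM, 6.84 with RA 1 uM and 23.0 in the combination. The DMSO sum lacks this marker, so it cannot be set beside the other sums. CD14, the monocyte LPS co-receptor, was at 3.03 FPKM in the combination and 0.109 to 0.221 in the 3 other treatment libraries with a value. MRC1 was listed at 0 in the combination, and CD163, the receptor for haptoglobin bound to haemoglobin, was at 0.0059. The part of monocyte-like expression in the HP value was not tested. Of the hepatocyte markers, ALB was at 0.215 FPKM and APOA1 at 0.152 in the combination. In bulk RNA, fewer cells of a kind and less RNA per cell cannot be told apart.

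CAMP (chromosome 3, 48239866 to 48241979, hg18) encodes the antimicrobial cathelicidin of specific granules. It was at 0.259 FPKM in DMSO, 0.593 with MC_2580, 1.24 with RA 0.01 uM, 1.49 with RA 1 uM and 3.89 in the combination. Each single agent thus lay above DMSO and the combination above all of them, at 2.61 times RA 1 uM. The log2 difference was 0.34 with MC_2580, 0.83 and 0.98 with the lower and higher RA dose, and 1.96 in the combination. This scale holds low genes down: with a pseudocount of 0.1 the RA doses gave 1.90 and 2.15 and the combination 3.47. On the first scale its deviation of 0.79 from the sum of the single agents ranked 436 of 9832 protein-coding genes. CAMP was also the one member for which both KO libraries (1.81 and 0.978 FPKM) lay above both WT libraries (0.376 and 0.454).

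MMP8 (chromosome 11, 102088599 to 102100868), the neutrophil collagenase of specific granules, followed the order of CAMP at a lower level. It was listed at 0 in DMSO, with MC_2580 and in all 4 libraries of the knockout set, and reached 0.0843 FPKM with RA 0.01 uM, 0.314 with RA 1 uM and 0.869 in the combination. The combination was 2.76 times RA 1 uM, but at under 1 FPKM in every library MMP8 did not enter any comparison across genes. The authors' deposited table calls it different between RA 0.01 uM and the combination, and not between the combination and DMSO, MC_2580 or RA 1 uM.

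MMP9 (chromosome 20, 44070954 to 44084119) encodes gelatinase B, the enzyme that gives tertiary granules their other name. In the treatment set it was the highest member except in the libraries with RA alone, where CHI3L1 was higher. MMP9 was at 28.9 FPKM in DMSO, 53.6 with MC_2580, 25.6 with RA 0.01 uM, 28.5 with RA 1 uM and 78.2 in the combination. The 2 libraries with MC_2580 were the 2 highest, and RA alone lay 0.17 and 0.02 from DMSO on the log2 scale. MC_2580 came with a log2 difference of 0.87 without RA and 1.58 with RA 0.01 uM, and the combination lay 1.42 above RA 1 uM. WT 1 and WT 2, libraries of a single group in the other set, differed by 1.53 (115 and 39.3 FPKM), and KO 1 and KO 2 by 1.06. The combination thus differed from DMSO, by 1.40, and from RA 1 uM by more than the KO pair and less than the WT pair, and from RA 0.01 uM by slightly more than either pair. The MMP9 row is 13166 bases long against 7654 for the RefSeq gene, so it may hold more than MMP9. The genes nearest to MMP9 in pattern were FBXO21, an F-box gene (distance 0.36), LY86, the partner of a Toll-like receptor relative (0.43), and GAS7 (0.43).

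CHI3L1 (chromosome 1, 201414682 to 201422545), which encodes a chitinase-like glycoprotein of specific granules without chitinase activity, was high in every library with RA and near DMSO with MC_2580 alone. It was at 4.03 FPKM in DMSO, 3.59 with MC_2580, 33.1 with RA 0.01 uM, 36.8 with RA 1 uM and 27.7 in the combination. The 3 libraries with RA were at 6.88 to 9.13 times DMSO, and the RA doses lay 0.15 apart on the log2 scale. Adding MC_2580 to RA 0.01 uM came with a log2 difference of -0.25, and the deviation from the sum was -0.11. Between replicate libraries the log2 difference of CHI3L1 was -0.85 for WT 1 minus WT 2 and -0.73 for KO 1 minus KO 2. Its nearest genes in pattern were ADA, the adenosine deaminase gene (distance 0.31, with 190 FPKM at RA 0.01 uM against 23.4 in DMSO), B3GNT8, a glycosyltransferase (0.34), and CD300LB, a myeloid receptor (0.40).

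**Figure D2:**
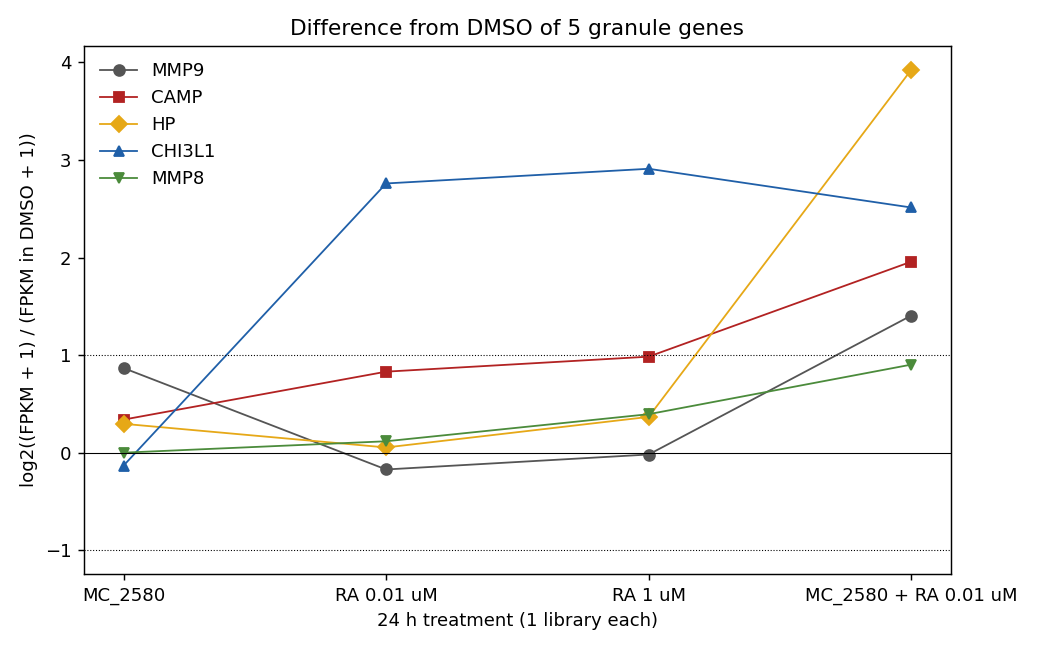
Log2 difference from DMSO on log2(FPKM + 1) for MMP9, CAMP, HP, CHI3L1 and MMP8 in each of the 4 treatments, 1 library each, with dotted lines at 2-fold. HP is near 0 with each single agent and at 3.92 in the combination, whereas CHI3L1 is at 2.76 and 2.91 with RA and at 2.51 in the combination.

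TCN1 (chromosome 11, 59376860 to 59390617), the haptocorrin gene, whose product binds cobalamin, ran the other way at a low level. It was at 0.189 FPKM in DMSO, 0.186 with MC_2580, 0.0863 with RA 0.01 uM, 0.0282 with RA 1 uM and 0.0328 in the combination. The 3 libraries with RA were the 3 lowest. CEACAM8 (chromosome 19, 47776236 to 47790906), the surface antigen used to mark specific granules, was listed at 0 in DMSO and with MC_2580, and was at 0.0796, 0.0371 and 0.140 FPKM with RA 0.01 uM, RA 1 uM and the combination.

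LTF, LCN2 and OLFM4 were close to silent. LTF (chromosome 3, 46452503 to 46481404) encodes lactoferrin, the iron-binding protein that defines the specific granule. It was at 0.0110 FPKM with RA 0.01 uM, 0.0268 with RA 1 uM and 0.0110 in KO 2, and was listed at 0 in the 6 other libraries. LCN2 (chromosome 9, 129951171 to 129955555), the siderophore-binding lipocalin, was at 0.0498 FPKM in KO 1 and listed at 0 in the 8 others. OLFM4 (chromosome 13, 52500960 to 52524187), the olfactomedin of a subset of neutrophils, was at 0.0066 FPKM in DMSO, 0.0091 with RA 0.01 uM, 0.0295 with RA 1 uM and 0.0091 in KO 2. Multiplied by the relative depth, the OLFM4 values in DMSO, RA 0.01 uM and RA 1 uM stood in the ratio of 1 to 1 to 4 and those of LTF at the 2 RA doses in the ratio of 1 to 3, to within 0.01, as counts of a few reads would. Several low values of CEACAM8, TCN1 and HP were not whole multiples of the gene's smallest value in its set. Fractions also arise where the smallest value holds more than 1 read, so few reads may lie behind these low values too. For TCN1 the multiples were 7.49 in DMSO, 6.51 with MC_2580, 2.50 with RA 0.01 uM and 1.00 with RA 1 uM. Genes used in every cell, such as ACTB and TBP, were not listed at 0. Any LTF, LCN2 or OLFM4 RNA lay at the limit of what these libraries detect.

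Against DMSO, a gene was called here at 2-fold on the FPKM + 1 scale when it reached 1 FPKM in 1 of the libraries compared; with 1 library each there is no test. These comparisons share the DMSO library. With MC_2580, 2 of the 10 members reached that level and 0 were called, against 2.22% of the loci that reached it higher and 3.95% called either way. With RA 0.01 uM 3 of 10 were measured and 1 was higher (CHI3L1), against 5.42% of loci higher and 9.41% either way. With RA 1 uM it was again CHI3L1 of 3 measured, against 6.63% and 10.7%, CAMP lying just under the threshold at 0.98. In the combination 4 of 10 were measured and these 4 were higher (HP, CHI3L1, CAMP and MMP9), against 9.05% and 13.7%. HP and CAMP entered that comparison only through their value in the combination, as HP did in the comparisons with RA alone, so the filter itself favours a difference for them. Against RA 0.01 uM 3 of 4 measured were higher in the combination (HP, MMP9 and CAMP), against 5.06% of loci higher and 6.97% either way. Against RA 1 uM 2 of 4 were (HP and MMP9), against 4.07% and 5.91%. Between the RA doses 0 of 3 members measured were called, against 1.93% of loci higher and 3.61% either way. No member was called lower in any of these comparisons. Summed levels of the 8 eosinophil, basophil and mast cell markers moved in the same libraries, from 1320 FPKM in DMSO and 1105 with MC_2580 to 490, 491 and 394 with RA 0.01 uM, RA 1 uM and the combination. That sum is mostly PRG2 (1294 FPKM in DMSO and 380 in the combination), while in each library with RA 2 of the 5 measured markers were higher than in DMSO and 2 lower, CLC and CCR3 being the higher ones. CLC and CCR3 reached 1 FPKM only in the libraries with RA, so the filter itself favours a difference for them too. The 8 lymphoid markers summed to 82.7 to 137 FPKM, which covers CD79A at 1.62 in DMSO and 49.95, 55.2 and 73.4 in the 3 libraries with RA. CD3D and CD79B of that list went the other way. In the same order CD3D was at 74.4, 60.8, 56.1 and 57.3 FPKM, and CD79B at 8.65, 4.38, 2.74 and 5.03. The part of these lists in the counts was not tested. The 6 matched epithelial and hepatocyte markers summed to 7.36 to 10.5 FPKM. By the same rule 4.99% of loci were higher in WT 1 than in WT 2 and 5.37% higher in KO 1 than in KO 2, with MMP9 among them in both cases. The authors' deposited table calls 4 members different between the combination and DMSO, 0 between MC_2580 and DMSO, and 1 between each RA dose and DMSO.

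**Figure D3:**
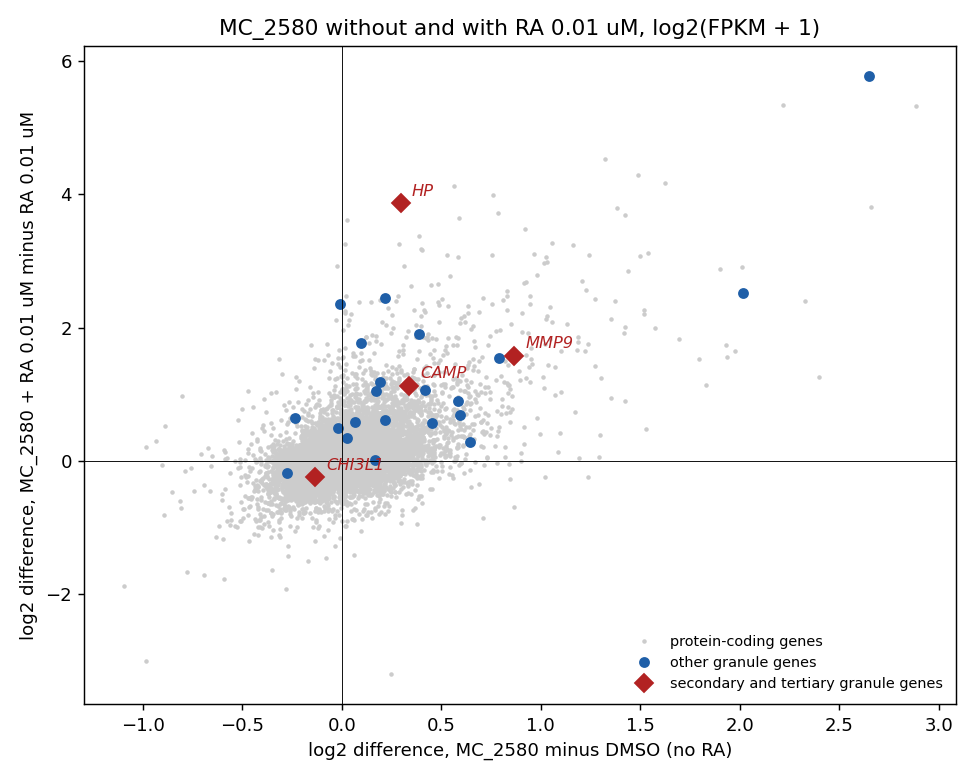
Log2 difference of MC_2580 from DMSO (horizontal) against that of the combination from RA 0.01 uM (vertical) for protein-coding genes (grey), 28 other granule genes where measured (blue) and the 4 granule genes that reached 1 FPKM (red). HP lies at 0.30 and 3.87, MMP9 at 0.87 and 1.58, and CHI3L1 at -0.13 and -0.25.

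The 250 bases before the RefSeq start of 4 genes are printed to set CAMP and MMP8, highest in the combination, beside CHI3L1, high with RA alone, and LCN2, close to 0 throughout. RefSeq windows (GRCh38.p14) were matched for 7 of the 10 members. Capitals mark matches on either strand to TTGCNNAA (a C/EBP core, TTNNGCAA on the other strand), GAGGAA (a PU.1 core), AGGTCA (a retinoid receptor half-site) or TATAAA. No matches overlapped in these windows.
CAMP (chr3:48223245-48223494, plus strand): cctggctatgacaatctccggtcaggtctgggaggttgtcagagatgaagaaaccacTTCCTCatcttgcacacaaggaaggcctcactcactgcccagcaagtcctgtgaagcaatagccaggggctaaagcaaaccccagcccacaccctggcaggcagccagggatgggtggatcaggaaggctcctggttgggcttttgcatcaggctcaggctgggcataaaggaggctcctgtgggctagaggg
MMP8 (chr11:102724955-102725204, minus strand): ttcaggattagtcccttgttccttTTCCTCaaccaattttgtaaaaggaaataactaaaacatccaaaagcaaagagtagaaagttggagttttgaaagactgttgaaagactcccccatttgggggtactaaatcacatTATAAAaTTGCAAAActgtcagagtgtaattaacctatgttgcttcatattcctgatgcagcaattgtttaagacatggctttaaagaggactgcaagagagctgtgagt
CHI3L1 (chr1:203186705-203186954, minus strand): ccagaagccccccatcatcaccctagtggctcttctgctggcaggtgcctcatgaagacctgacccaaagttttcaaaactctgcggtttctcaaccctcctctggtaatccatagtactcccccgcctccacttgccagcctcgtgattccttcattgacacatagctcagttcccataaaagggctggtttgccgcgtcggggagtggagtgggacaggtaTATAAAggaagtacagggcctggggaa
LCN2 (chr9:128149203-128149452, plus strand): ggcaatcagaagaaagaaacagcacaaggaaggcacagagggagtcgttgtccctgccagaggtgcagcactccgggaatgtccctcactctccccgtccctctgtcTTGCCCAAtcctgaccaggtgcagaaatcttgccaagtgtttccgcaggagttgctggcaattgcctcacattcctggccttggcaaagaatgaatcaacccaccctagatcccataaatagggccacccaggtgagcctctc
The C/EBP letters were found in 3 of the 7 windows, MMP8 at 103 to 96 bases before the start, LCN2 at 143 to 136 and TCN1 at 109 to 102, and in 9.05% of all 35116 windows. LCN2, near 0 throughout, and TCN1, lowest with RA, thus hold these letters as MMP8 does, while the windows of CAMP and CHI3L1 lack them. The PU.1 letters were in CAMP (193 to 188) and MMP8 (226 to 221), and in 23.6% of all windows. The half-site was in 0 of the 7 and in 12.1% of all. TATAAA lay 27 to 22 bases before the CHI3L1 start and 110 to 105 before that of MMP8, and was in 10.7% of all windows. A match is a description of these letters only.

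In the knockout set no member passed the test. Of the 10, 3 reached a group mean of 1 FPKM and were tested (CAMP, MMP9 and CHI3L1), and limma called 0 at an adjusted p of 0.05, against 0.114% of 13156 loci. At an unadjusted p under 0.05 there was 1, CHI3L1, and 7.18% of loci. CHI3L1 was at 1.34 and 2.87 FPKM in KO against 6.38 and 12.3 in WT, a mean of 2.11 ± 1.08 against 9.34 ± 4.18 (SD, n = 2 per group). Its groups did not overlap, with a log2 difference of -1.72 (SE 0.43, limma adjusted p = 0.517). MMP9 was at 36.2 and 16.8 FPKM in KO against 115 and 39.3 in WT, again without overlap (-1.41, SE 0.69, limma adjusted p = 0.828), though KO 1 and WT 2 lay close together, and the difference was -0.65 without WT 1 and -0.88 without KO 2. In the authors' deposited table, KO 1 against WT 1 is called different for MMP9, and KO 2 against WT 2 is not. For CAMP the log2 difference was 0.74 (SE 0.32, limma adjusted p = 0.779). TCN1 was at 0.0227 and 0.157 FPKM in KO against 0.376 and 1.13 in WT, and CEACAM8 at 0.415 and 0.251 against 0.384 and 0.315. In all, 3 members (MMP9, CHI3L1 and TCN1) had both KO libraries below both WT libraries and 1 (CAMP) had them above. Of the loci tested, 16.1% and 17.9% also showed these patterns, but TCN1 was not among the loci tested. Marker lists of other cells differed between the same libraries. The 8 eosinophil, basophil and mast cell markers summed to 181 and 221 FPKM in KO against 1530 and 1735 in WT, nearly all of it PRG2. IL5RA of the same list went the other way, at 2.85 and 1.60 FPKM in KO against 0.061 and 0.0517 in WT, so not every marker of the list was lower in KO. The 8 lymphoid markers summed to 261 and 213 against 135 and 84.8, and the 6 matched epithelial and hepatocyte markers to 2.51 and 0.943 against 11.8 and 13.4. This last sum was mostly EPCAM, at 1.725 and 0.726 FPKM in KO against 11.0 and 12.9 in WT. The part of these marker lists in the values of the granule genes was not tested.

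**Figure D4:**
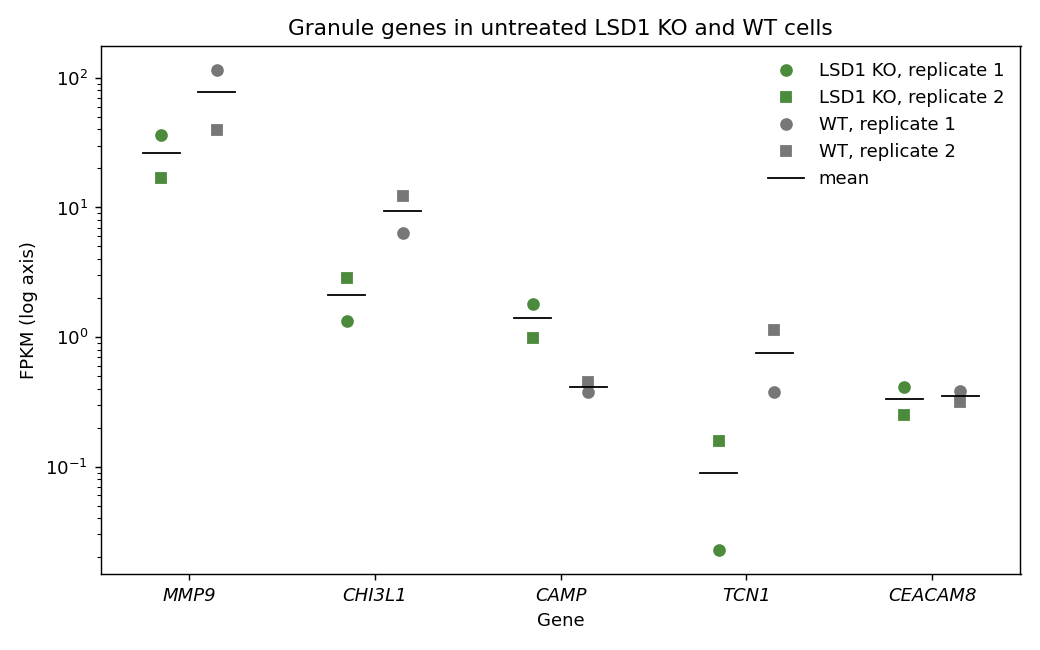
FPKM on a log axis of MMP9, CHI3L1, CAMP, TCN1 and CEACAM8 in the 2 LSD1 KO and 2 WT libraries, with the group means as short lines. MMP9, CHI3L1 and TCN1 are lower in both KO libraries than in both WT libraries, CAMP is higher, and CEACAM8 overlaps.

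MMP9 lay lower in both KO libraries than in both WT libraries and higher with MC_2580 than in DMSO, and CAMP lay higher in both settings. Limma called neither KO difference, and MMP9 stayed under 2-fold with MC_2580. CAMP was under 1 FPKM in DMSO and with MC_2580, so it could not be called there. The authors' deposited calls name MMP9 for KO 1 against WT 1, but not for KO 2 against WT 2 or MC_2580 against DMSO. The difference between the settings was not tested.

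Regulators of granule genes were read from a list of 14, of which 13 matched and 11 were measured at 1 FPKM in the treatment comparisons. In the combination 5 were higher than in DMSO and 0 lower (median log2 difference 0.86, against -0.02 over all loci), where 9.05% of loci were higher. CEBPE, the C/EBP factor of late granulocyte maturation, was at 37.1 FPKM in DMSO, 52.2 with MC_2580, 174.6 and 341 with RA 0.01 and 1 uM, and 262 in the combination. CEBPB, a related factor of stress granulopoiesis, was at 5.36 and 4.56 FPKM without RA and at 171.9, 85.6 and 167 in the same 3 RA libraries. Both were thus high wherever RA was given, as CHI3L1 was, while HP was high in the combination only. Against RA 0.01 uM, 2 regulators were higher in the combination: IRF8, a factor of monocyte fate, at 33.5 against 3.04 FPKM, and GFI1, a repressor that recruits LSD1, at 166.7 against 41.4. With MC_2580 alone IRF8 was at 16.3 and GFI1 at 105.9 FPKM, against 6.32 and 67.1 in DMSO, so both had higher values with MC_2580 alone too, IRF8 past 2-fold. Libraries of a single group also differed in IRF8, which was at 14.5 FPKM in WT 1 and 6.01 in WT 2. In KO against WT limma called 0 of 12 regulators, with 2 at an unadjusted p under 0.05, as 7.18% of loci were: GFI1 (98.4 and 98.2 against 43.7 and 46.5 FPKM; 1.11, SE 0.16, limma adjusted p = 0.221) and CEBPE (75.2 and 69.4 against 34.5 and 39.5; 0.95, SE 0.17, limma adjusted p = 0.340).

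Other secondary, tertiary and secretory granule genes were read from a list of 28. With RA 0.01 uM 10 of 19 measured were higher and 3 lower (median 1.07, against -0.06 over all loci), where 5.42% of loci were higher. ORM1 and ORM2, both higher, were measured in that comparison only through their value with RA 0.01 uM. PTX3, which was lower, was measured only through DMSO, so the filter itself favours a difference for these genes. In the combination 14 of 21 were higher than in DMSO and 1 lower (median 1.93), where 9.05% of loci were higher and 13.7% called either way. ORM1, ORM2, FPR1 and FPR2 were measured there only through their value in the combination, and PTX3, the lower one, only through DMSO. Against RA 0.01 uM 10 of 20 were higher in the combination and 0 lower (median 0.97, against 0.03 over all loci), where 5.06% of loci were higher, and FPR1 and FPR2 were again measured only through the combination. LRG1, which encodes a glycoprotein of neutrophil granules, had 3.87 FPKM in DMSO, 137 with RA 0.01 uM and 313 in the combination. ITGAM, the integrin stored in these granules, was at 2.68 FPKM in DMSO, 13.9 with MC_2580, 22.9 and 42.5 with the RA doses and 136 in the combination, and FCN1, the ficolin gene, at 20.2 and 114. FPR2, a formyl peptide receptor that also binds the cathelicidin peptide, was at 0.470 FPKM with RA 0.01 uM, 0.806 with RA 1 uM and 6.53 in the combination. The lysozyme gene LYZ was at 10.9 FPKM with RA 0.01 uM and 653 in the combination, and at 290 with MC_2580 alone against 45.3 in DMSO. LYZ and ITGAM were the 2 genes of this list past 2-fold with MC_2580 alone. Both also varied widely between replicates. ITGAM was at 6.82 FPKM in WT 1 and 1.25 in WT 2, and at 29.0 in KO 1 and 9.40 in KO 2. LYZ was at 34.1 FPKM in WT 1 and 115.6 in WT 2, and at 380.6 in KO 1 and 912.4 in KO 2. No replicate checks the values of these genes with MC_2580. CRISP3 and ARG1 of this list stayed at or under 0.107 FPKM in each of the 9 libraries with a value, as LTF and LCN2 did. In KO against WT limma called 0 of 17, with 1 at an unadjusted p under 0.05, as 7.18% of loci were (LYZ, limma adjusted p = 0.507).

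Inhibitors, receptors and relatives of the members made a list of 14, with 13 matched. TCN2, the transcobalamin gene and relative of TCN1, was at 1.67 FPKM in DMSO, 7.05 with RA 0.01 uM, 8.65 with RA 1 uM and 13.8 in the combination, the reverse of TCN1. CEACAM1, the adhesion relative of CEACAM8, was at 0.015, 1.22, 3.99 and 11.3 FPKM in that order. PRTN3, the protease that releases the active cathelicidin peptide, had 178 FPKM in DMSO, 762 and 966 at the lower and higher RA dose and 454 in the combination. CD320, the transcobalamin receptor gene, was at 210.2 FPKM in DMSO and 79.5 in the combination. In the combination 4 of 6 measured were higher than in DMSO and 1 lower (median 1.28), where 9.05% of loci were higher and 13.7% called either way, and CEACAM1 was measured only through the combination. In KO against WT limma called 0 of 6, with 1 at an unadjusted p under 0.05, as 7.18% of loci were (TCN2; 6.63 and 4.88 against 2.07 and 1.74 FPKM, limma adjusted p = 0.347).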

How the data were processed

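Levels in 9 NB4 libraries were read from 2 tables of FPKM, which the authors deposited in Cuffdiff's layout, per the file headers. Tools named in the submitters' processing notes, in no stated role, are Cuffdiff, Cufflinks, TopHat2 2.0.10, TopHat 1.3.1 and CASAVA 1.8, and the build is hg18. A constant of 0.001 FPKM in the deposited knockout values was subtracted. Both tables also hold the authors' deposited calls for 1 library against another. The calls were used, and the p-values and q-values deposited for the knockout were not. Treatment values of a pair with a failed or high-data status were treated as missing, and the largest value from a library's other pairs was kept. This left 1039 treatment loci with at least 1 library missing, none of them a member. In the knockout set only values listed at 0 under such a status were treated as missing (2 loci). Starts count from 0 in the files, and 1 was added.

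For LSD1 KO against WT, loci whose mean was 1 FPKM or more in either group (13156) entered a limma trend fit of log2(FPKM + 1), using limma 3.58.1 under R 4.3.3. P-values were adjusted over all these loci by Benjamini and Hochberg, and the script was tested on simulated data. Treatments were compared as log2((FPKM + 1)/(FPKM + 1)) without a test, at 2-fold; this scale understates changes of low genes. Other steps used numpy 2.4.6, pandas 2.3.3 and matplotlib 3.10.9 under Python 3.11.15. The members, the gene lists and the tests were chosen with earlier results of these data known. Named were all members, KDM1A, list members with large differences at 5 FPKM or more or needed as background, and the 3 protein-coding genes nearest in pattern to each member of at least 5 FPKM. Alternatives were other pseudocounts, filters and scalings, a replicate block, each library left out, protein-coding genes only and a 4-fold threshold.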

Additional observations from a re-analysis of the deposited data

How the results depend on the processing

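Limma called 0 members in LSD1 KO against WT under every alternative run (a pseudocount of 0.1, no filter, quantile normalization, protein-coding genes only, the replicate block, and without each library), and the log2 differences of CAMP, MMP9 and CHI3L1 kept their sign in all 26 refits in which they were tested; CAMP was not tested without KO 1. Without 1 library the difference ranged from -2.14 to -1.29 for CHI3L1, from -2.17 without WT 2 to -0.65 without WT 1 for MMP9 (-0.88 without KO 2), and from 0.70 to 0.99 for CAMP. With the replicate block, limma's adjusted p was 0.124 for CHI3L1, 0.149 for MMP9 and 0.258 for CAMP, and 0 members were called. Over all loci limma called 15, against 38 with a pseudocount of 0.1, 59 among protein-coding genes only, and 0 with no filter, with the block or without any 1 library. The labels do not say what a replicate number marks, and the deviations of KO 1 and WT 1 from their group means correlated at 0.21 over 13156 loci. In the treatment set the counts of members past 2-fold moved as follows. With a pseudocount of 0.1 there were 2 for RA 0.01 uM and 2 for RA 1 uM against DMSO, CAMP being added to CHI3L1, and 3 in the combination against RA 1 uM. With differences shifted to a median of 0 there were 2 for RA 1 uM against DMSO. At a 4-fold threshold there were 2 in the combination against DMSO, 1 against RA 0.01 uM and 1 against RA 1 uM. The deviation of HP from the sum was 4.84 with a pseudocount of 0.1, an alternative chosen after seeing the data. Of the values of single members recomputed for the treatments, 42 moved by less than the spread between replicates in the knockout set and 8 by more, all 8 of them values of CAMP or HP with a pseudocount of 0.1. Unknown depth limits what can be said of the members under 1 FPKM.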
